A study of Mus musculus with 4 samples.

Results

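The sites described here are 303 stretches of the mouse genome that were listed as CTCF binding sites in liver at ZT12, were at least 285 bp wide and had no counterpart in the list for ZT0. They were selected on width and overlap: a site on an autosome of the ZT12 list was taken when its end minus its start was at least 285 bp, the median width of that list, and when it shared not even 1 bp with any ZT0 site. The ZT12 list holds 6799 sites, of which 6756 lie on autosomes and 3393 of these are wide enough. The 303 ZT12-only sites are 8.93% of the wide autosomal sites (95% Wilson interval 8.02 to 9.94%), and the other 3090, called wide shared sites here, overlap a ZT0 site and serve for comparison. Over all widths, 16.1% of the autosomal ZT12 sites had no ZT0 overlap, and the 787 narrower ones among them serve as another comparison.

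CTCF was measured by ChIP-seq, in which DNA held by a protein is pulled down with an antibody and sequenced, to compare its binding between times of day. Livers came from male C57BL/6 mice, 8 weeks old and with a wild type genotype (spelled wilde type in the labels), kept in 12 hours of light and 12 hours of darkness and fed ad libitum. Each time point, ZT0 (lights on) and ZT12 (lights off), had 2 biological replicates and was deposited as 1 list of peak positions for both replicates. A list holds positions alone, with no peak height, strand or replicate, so a site counts as listed or not listed, n is a number of sites and not of animals, and the read depth is unknown. The labels name FIMO, a motif search program, for both lists. The ZT0 list holds far fewer sites than the study describes as shared between the time points, so it does not hold every ZT0 site, and ZT12-only means without overlap in these lists and not unbound at ZT0. The tissue is bulk liver, and no measurement in the lists allowed the cell types in it to be checked.

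CTCF is a DNA-binding protein with a row of zinc fingers that reads a long, partly degenerate sequence rich in C and G. It halts the cohesin complex as this extrudes chromatin loops, and the orientation of its motif decides on which side a loop is held, which makes it a main component of domain boundaries and insulators. At some of its sites, methylation of the cytosine in a CpG within the motif weakens binding. In liver it is bound at promoters, in introns and between genes.

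Width and overlap chose the sites and are given as a description. The median width was 321 bp (quartiles 300 and 352 bp) and the widest site had 648 bp, while wide shared sites had a median of 349 bp (quartiles 313 and 403 bp) and reached 1003 bp. Just inside the width limit lay 6 sites of 285 bp, and just outside it 5 sites without ZT0 overlap of 284 bp. Sites without overlap made up 14.6% of the wide sites under 300 bp, 11.8% of those from 300 to under 350 bp, 6.36% from 350 to under 400 bp, 4.24% from 400 to under 500 bp and 1.75% from 500 bp. Just inside the overlap limit were a site in the neuronal splicing factor gene Rbfox3 at chr11:118599697-118600017, 58 bp from the nearest ZT0 site, a site upstream of Npc1, 183 bp away, and a site upstream of 2810453I06Rik, 412 bp away. The smallest overlaps among the wide shared sites were 99, 121 and 132 bp, so no overlap fell close to the limit of 1 bp. Of the 303 sites, 9 had a ZT0 site within 1 kb, 48 within 5 kb and 75 within 10 kb, and 65 had none within 100 kb. The median distance to the nearest ZT0 site was 33.4 kb (95% interval 26.1 to 41.3 kb). The site farthest from any ZT0 site, at chr5:12030006-12030316, lay 1599 kb from it.

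Nearly all sites of both groups held the CTCF motif. The sources used here do not say if FIMO served to keep sites that hold a motif. If it did, high shares and scores in both groups were set by that step, so they are given as a description of the lists. A 19 bp weight matrix was learned on ZT0 sites that overlap no ZT12 site, which belong to none of the compared groups, and the best match was taken in a window of 285 bp around each midpoint, so that every site had the same length of sequence. A match at a p of 0.0001 per position was found in 281 of 303 sites (92.7%, 95% Wilson interval 89.3 to 95.2%) and in 2903 of 3090 wide shared sites (93.9%, 93.1 to 94.7%). The difference was -1.21 percentage points (95% Newcombe interval -4.78 to 1.37), which includes 0. Windows 5 kb to either side of the ZT12-only sites held a match in 29 of 598 cases (4.85%). At a stricter score, which 1% of the windows 5 kb from ZT0 sites pass, the shares were 77.6% and 76.4% (difference 1.15 points, -4.08 to 5.75). Across whole sites, where the shared sites have more sequence, a match was found in 93.7% and 96.2% (difference -2.48 points, -5.86 to -0.147).

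The score of the best match is subject to the same limit. The median log-odds score, in log2 units, was 18.19 (95% interval 17.84 to 18.52, quartiles 15.85 and 20.68) in ZT12-only sites and 18.65 (18.50 to 18.84, quartiles 15.73 and 21.00) in wide shared sites, a difference of medians of -0.46 with overlapping intervals, and the narrower ZT12-only sites had 18.24 (17.88 to 18.49). With a matrix from all ZT0 sites the difference from wide shared sites was -0.69. The range spanned by the bounds of both medians, -1.33 to -0.00145, excludes 0. That matrix was also learned on ZT0 sites that overlap wide shared sites, while none of its sites overlaps a ZT12-only site. It therefore does not stand apart from the groups compared. With the matrix used throughout, the medians over 1 kb from a start were 18.22 (17.89 to 18.86) against 19.10 (18.92 to 19.29), with intervals that do not overlap. Within 1 kb of a start they were 16.96 (13.75 to 18.48) against 17.35 (16.90 to 17.82), with intervals that overlap. Between genes they were 18.06 (17.49 to 18.39) against 18.98 (18.73 to 19.30), and in introns they were 19.09 (17.84 to 19.90) against 19.33 (19.11 to 19.68). The best match lay a median of 36.0 bp from the midpoint in ZT12-only sites (95% interval 28.5 to 41.0 bp) and 31.0 bp in wide shared sites (30.0 to 32.5 bp). A second or further match was rarer: 15 ZT12-only sites had at least 2 matches (4.95%, 3.02 to 8.01%), against 385 wide shared sites (12.5%, 11.3 to 13.7%), a difference of -7.51 points (-9.79 to -4.26).

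The ZT12-only sites differed in the letters of the motif. Of the 281 matches in these sites, 112 contained a CpG (39.9%, 95% Wilson interval 34.3 to 45.7%), against 1892 of 2903 matches in wide shared sites (65.2%, 63.4 to 66.9%), a difference of -25.3 points (95% Newcombe interval -31.1 to -19.2). At a minimum width of 400 bp, with 6 of 26 ZT12-only matches, the difference was -47.4 points (-59.8 to -28.1). Among sites from 285 to under 350 bp it was smaller, -19.6 points (-26.5 to -12.4). The narrower ZT12-only sites, with 312 of 745 matches (41.9%, 38.4 to 45.5%), lay beside the wide ones. A CpG was most frequent at positions 15 and 16 of the 19 bp, counted from 1 at the 5′ end of the strand that carries the motif: 84 ZT12-only matches had it there (29.9%, 24.8 to 35.5%), against 1465 shared matches (50.5%, 48.6 to 52.3%), a difference of -20.6 points (-25.9 to -14.7). At positions 5 and 6, the next most frequent place, 16 ZT12-only matches had a CpG (5.69%, 3.53 to 9.05%), against 497 shared matches (17.1%, 15.8 to 18.5%), a difference of -11.4 points (-14.0 to -7.82). Both places together had a CpG in 4 ZT12-only matches (1.42%) and in 350 shared matches (12.1%), a difference of -10.6 points (-12.1 to -8.18). These counts were chosen after the values had been seen.

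The share of matches with a CpG anywhere was also lower within classes of position and in the middle classes of GC content. In every class of GC content the difference was smaller than the -25.3 points over all sites. Over 1 kb from a transcription start it was 97 of 255 matches (38.0%) against 1280 of 2180 (58.7%), a difference of -20.7 points (-26.8 to -14.2). In introns it was 37 of 110 (33.6%) against 407 of 766 (53.1%), a difference of -19.5 points (-28.4 to -9.59), and between genes 58 of 137 (42.3%) against 776 of 1265 (61.3%), a difference of -19.0 points (-27.4 to -10.2). Among windows with a GC content from 45 to under 50% it was 35 of 105 (33.3%) against 297 of 554 (53.6%), a difference of -20.3 points (-29.5 to -9.94), and from 50 to under 55% it was 23 of 62 (37.1%) against 503 of 876 (57.4%), a difference of -20.3 points (-31.7 to -7.45). Under 45% GC the shares were 38.0% and 48.4% (difference -10.4 points, -22.3 to 2.45), and from 55% GC they were 68.6% and 78.5% (-9.97 points, -26.7 to 3.13), where the intervals include 0. At the stricter motif score the shares were 41.7% and 63.3% (difference -21.6 points, -28.0 to -14.9). The difference at positions 15 and 16 was also smaller in each class of GC content than the -20.6 points over all sites. It was -2.18 points under 45% GC (-13.3 to 10.2), -15.5 points from 45 to under 50% (-23.9 to -5.60), -15.5 points from 50 to under 55% (-25.8 to -2.81) and -16.4 points from 55% (-31.9 to -0.125). At positions 5 and 6 it was -3.77 points (-9.27 to 4.11), -3.28 points (-6.26 to 2.20), -5.22 points (-8.32 to 2.75) and -9.41 points (-19.7 to 6.67) in the same classes, each with 0 in the interval and smaller than over all sites.

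Single bases of the match moved with these dinucleotides. At position 16, A was found in 50.5% of ZT12-only matches and 36.4% of shared matches (difference 14.1 points, 8.01 to 20.1), and G in 45.6% and 61.4% (-15.9 points, -21.9 to -9.76). At position 6, A was found in 84.3% and 73.2% (difference 11.1 points, 6.14 to 15.2), and G in 5.69% and 17.4% (-11.7 points, -14.3 to -8.06). At position 8, which forms no frequent CpG, T was found in 44.5% and 32.2% (difference 12.3 points, 6.36 to 18.4), and C in 38.1% and 51.0% (-12.9 points, -18.7 to -6.82). The last base, position 19, was A in 45.6% and 35.0% (difference 10.6 points, 4.60 to 16.7).

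The matches of the 10 ZT12-only sites with the highest motif scores are printed to show how many hold a CpG, 5′ to 3′ on the strand of the motif in mm9 (NCBIM37), with CpG in capitals. Of the 10, 3 contain a CpG, each at positions 15 and 16. Their scores run from 25.38, for a site between genes 17.7 kb upstream of Ing2, which encodes a reader of histone methylation, to 23.65, for a site in an intron of Apbb2, which encodes an adaptor of the amyloid precursor protein.
chr8:48778666-48778684, minus strand, upstream of Ing2: tggccaccagggggcagca
chr11:3780040-3780058, minus strand, between genes: tgaccaccagggggcagca
chr11:75726934-75726952, plus strand, intron of Rph3al: tgaccaccagggggcagtg
chr15:59928880-59928898, plus strand, between genes: tggccaccaggtggcagcc
chr15:73384138-73384156, minus strand, intron of Dennd3: tgtccaccaggtggCGcca
chr15:83904541-83904559, plus strand, upstream of Efcab6: cagccaccaggtggCGctg
chr11:43597426-43597444, plus strand, intron of Adra1b: tcaccaccagggggcactg
chr6:128804264-128804282, plus strand, intron of BC035044: cagccaccagggggcactc
chr7:73445768-73445786, minus strand, intron of Lrrk1: tcaccaccagagggCGcca
chr5:66710771-66710789, minus strand, intron of Apbb2: cagccaccagggggcagta

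The 5 wide shared sites with the highest scores, from 26.82 to 26.07, are printed in the same way as examples. The first is the most frequent base of the matrix at every position, with a CpG at positions 15 and 16, so choosing matches by score favours a CpG there, and no comparison of CpG is drawn between the printed sets.
chr9:20635625-20635643, minus strand, between genes near Rdh8: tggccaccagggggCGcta
chr3:19594060-19594078, minus strand, exon of Crh: tggccaccagggggCGctg
chr11:57633658-57633676, plus strand, between genes near Hand1: tggccaccagggggCGccc
chr5:136092112-136092130, plus strand, between genes near Rhbdd2: CGgccaccagggggCGcca
chr5:140226687-140226705, minus strand, between genes near Micall2: tggccaccagggggcactg

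These high-scoring ZT12-only sites sat in varied surroundings. The site near Ing2 spans chr8:48778470-48778759, lay 50.1 kb from the nearest ZT0 site and had a GC content of only 38.6% in its window. The Rph3al site, at chr11:75726709-75727217, is also among the 10 widest with 509 bp, lies 2.40 kb upstream of the nearest start of this gene, whose product acts in regulated secretion, and was 52.8 kb from a ZT0 site. The Dennd3 site, at chr15:73384013-73384423, had a ZT0 site only 0.735 kb away, and the Apbb2 and Lrrk1 sites had one 6.70 kb and 8.94 kb away. The Adra1b site, at chr11:43597262-43597628, lies in an intron of the gene of the alpha-1B adrenergic receptor, which hepatocytes use in the response to catecholamines, 16.6 kb from a ZT0 site. The site near 4933412E24Rik, at chr15:59928721-59929012, was the most remote of them, 232 kb from a ZT0 site. The windows near Ing2 and in Rph3al are printed whole, 5′ to 3′ on the plus strand of mm9, with the match in capitals; a match on the minus strand therefore appears as its reverse complement.
chr8:48778473-48778757, match on the minus strand: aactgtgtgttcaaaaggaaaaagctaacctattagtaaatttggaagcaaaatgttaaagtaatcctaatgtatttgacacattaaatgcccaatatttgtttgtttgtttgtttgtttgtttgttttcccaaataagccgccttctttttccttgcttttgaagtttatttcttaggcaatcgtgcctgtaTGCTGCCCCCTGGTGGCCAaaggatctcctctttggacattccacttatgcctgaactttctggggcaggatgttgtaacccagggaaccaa
chr11:75726821-75727105, match on the plus strand: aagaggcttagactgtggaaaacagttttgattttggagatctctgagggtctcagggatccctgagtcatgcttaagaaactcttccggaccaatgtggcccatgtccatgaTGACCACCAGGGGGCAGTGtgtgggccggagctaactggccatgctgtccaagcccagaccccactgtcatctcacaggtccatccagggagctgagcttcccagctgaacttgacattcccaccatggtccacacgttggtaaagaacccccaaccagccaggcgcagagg

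The ZT12-only sites lay in sequence with less C and G. The median GC content of the window was 48.4% (95% interval 47.4 to 48.8%, quartiles 44.9 and 52.6%), against 54.0% (53.7 to 54.4%, quartiles 49.8 and 58.9%) in wide shared sites, a difference of -5.61 points, and 47.7% (47.0 to 48.1%) in the narrower ZT12-only sites. A GC content of 50% or more was found in 109 sites (36.0%, 30.8 to 41.5%), against 2279 wide shared sites (73.8%, 72.2 to 75.3%), a difference of -37.8 points (-43.2 to -32.0). The median window held 4 CpG against 7, and the CpG count relative to that expected from the C and G content had a median of 0.217 (0.197 to 0.240) against 0.369 (0.357 to 0.382). No CpG at all was found in 12 ZT12-only windows (3.96%) and 46 shared windows (1.49%), a difference of 2.47 points (0.721 to 5.33). Over 1 kb from a start, the medians of GC content were 48.1% (47.4 to 48.8%) and 52.6% (52.3 to 52.6%), and within 1 kb of a start they were 53.0% (48.8 to 56.8%) and 61.1% (60.4 to 61.8%). Near starts the CpG count was 4 (2 to 10) in the ZT12-only windows and 17 (16 to 18) in the shared windows.

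By position, the ZT12-only sites were away from transcription starts and in introns more often than the wide shared sites. In the GENCODE annotation of this build, 29 of 303 had their midpoint within 1 kb of a start (9.57%, 6.75 to 13.4%), against 790 of 3090 (25.6%, 24.1 to 27.1%), a difference of -16.0 points (-19.2 to -11.9). In introns lay 118 (38.9%, 33.6 to 44.5%), against 802 (26.0%, 24.4 to 27.5%), a difference of 13.0 points (7.44 to 18.8). Between genes lay 147 (48.5%, 42.9 to 54.1%), against 1339 (43.3%, 41.6 to 45.1%), a difference of 5.18 points whose interval includes 0 (-0.662 to 11.1). With protein-coding genes only it was 5.94 points (0.0537 to 11.8), and without ZT12-only sites that had a ZT0 site within 1000 bp it was 5.99 points (0.0520 to 11.9), where the intervals exclude 0. The remaining 9 lay in other exons (2.97%), against 159 (5.15%). The narrower ZT12-only sites had nearly the same makeup, with 9.28% near starts, 39.5% in introns and 47.3% between genes. The median distance to the nearest start was 10.6 kb (8.59 to 12.1 kb), against 6.01 kb (5.36 to 6.47 kb), and to the start of a protein-coding gene 14.6 kb (11.8 to 16.8 kb), against 7.89 kb (7.21 to 8.57 kb).

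Of the 303 sites, 19 had their midpoint within 1 kb of the start of a protein-coding gene (6.27%, 4.05 to 9.59%), against 721 wide shared sites (23.3%, 21.9 to 24.9%), a difference of -17.1 points (-19.8 to -13.4). Upstream of the start lay 9 of the 19, and 17 had a motif match, 10 of them with a CpG. In order of distance, the genes included Mc1r, Scpep1, Sncb, Pdlim7, C030046E11Rik, Myo1h, 2810453I06Rik, Cux2, Samd4, Adam33, E2f2, Fam65c, Npc1, Mpdu1, Amh, 1700101E01Rik, 1810011O10Rik and Saa3. The closest site, at chr8:125930783-125931122, had its midpoint 0.029 kb upstream of the start of Mc1r, the receptor that switches pigment cells to dark pigment, with a match of score 18.19 and 4 CpG in its window. The site at Scpep1, a serine carboxypeptidase gene, spans chr11:88816643-88816988 with its midpoint 0.037 kb upstream of the start, and its match of score 14.94 has a CpG at positions 1, 5 and 17. At Sncb, which encodes beta-synuclein, the site at chr13:54867748-54868086 had the highest GC content of all 303 windows, 69.8%. At Npc1, whose product exports cholesterol from lysosomes, the site lay 0.710 kb upstream of the start, with a score of 15.44.

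Cux2 and Saa3 show how different the sites near starts were. The site at chr5:122500332-122500632 lies 0.371 kb upstream of the start of Cux2, a homeobox repressor, and has a match of score 18.43. Its 34 CpG were the highest count of any wide ZT12-only window, 1.01 times the expected number. The site at chr7:53969896-53970213 lies in an intron of Saa3, an acute-phase serum amyloid A gene, 0.991 kb downstream of its start, with 4 CpG, a match of score 20.66 without a CpG and a ZT0 site 3.57 kb away. The windows, which overlap no annotated exon, are printed 5′ to 3′ on the plus strand of mm9 with the match in capitals, to set a CpG-rich window beside a CpG-poor one.
chr5:122500340-122500624, upstream of Cux2, match on the plus strand: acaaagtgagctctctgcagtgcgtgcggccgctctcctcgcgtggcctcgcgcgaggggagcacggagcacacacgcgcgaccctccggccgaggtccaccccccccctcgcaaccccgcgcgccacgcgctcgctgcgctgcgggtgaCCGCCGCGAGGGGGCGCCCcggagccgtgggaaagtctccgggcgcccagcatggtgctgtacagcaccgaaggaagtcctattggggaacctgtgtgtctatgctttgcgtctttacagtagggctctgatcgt
chr7:53969913-53970197, intron of Saa3, match on the plus strand: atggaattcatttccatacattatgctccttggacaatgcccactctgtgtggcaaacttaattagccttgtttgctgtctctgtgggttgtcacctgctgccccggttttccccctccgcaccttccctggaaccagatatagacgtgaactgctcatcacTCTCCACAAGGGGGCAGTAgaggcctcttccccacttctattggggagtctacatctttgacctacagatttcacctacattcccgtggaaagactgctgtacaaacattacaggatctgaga

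The 10 widest sites ran from 648 to 451 bp, and 8 of them had a match in the window. The widest, at chr6:127092088-127092735, lies in an intron of Ccnd2, which encodes the cell-cycle regulator cyclin D2, 8.65 kb from the start and 4.95 kb from a ZT0 site. Its central window held no match (best score 6.03), but a match of score 18.24 lay 142 bp before its midpoint. The next, at chr9:107579617-107580194 with 578 bp, lies in the gene of the rod transducin subunit, Gnat1, 0.977 kb from a ZT0 site, with a score of 15.17. A site of 511 bp at chr19:47242740-47243250, 2.63 kb from the start of Gm6970, had a score of 21.55. A site of 477 bp at chr8:19853478-19853954 had 75.2% of the 24-mers of its central window at 2 or more places in the genome. A site of 459 bp at chr6:55333924-55334382 covers an exon of Ghrhr, the receptor of growth hormone-releasing hormone, with a score of 19.96. A site of 454 bp at chr7:138256009-138256462 lies in introns of the annotated genes Fgfr2, of a fibroblast growth factor receptor, and Dmbt1. Its score was 18.12, and the nearest protein-coding start, that of 4933402N03Rik, lay 33.6 kb away. A site of 451 bp at chr10:75206684-75207134 lies in an intron of Cabin1, which encodes an inhibitor of calcineurin, with a score of 19.96. The Ghrhr window is printed 5′ to 3′ on the plus strand of mm9, with the match on the minus strand in capitals, because it is one of the 9 sites in exons.
chr6:55334011-55334295, exon and introns of Ghrhr: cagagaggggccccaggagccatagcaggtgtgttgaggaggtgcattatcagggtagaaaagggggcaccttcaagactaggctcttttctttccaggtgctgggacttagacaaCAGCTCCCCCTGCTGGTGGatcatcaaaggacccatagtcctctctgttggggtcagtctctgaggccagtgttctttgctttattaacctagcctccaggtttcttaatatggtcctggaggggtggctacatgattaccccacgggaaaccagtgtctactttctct

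No match in the window was found in 22 of the 303 sites, and 3 of these had one nearer to an end of the site. Besides the Ccnd2 site they were a site at Fam65c, at chr2:167835276-167835700, and a site nearest to Mrpl16, at chr19:11851636, which was named after its values were seen. The matches are printed 5′ to 3′ on the strand of the motif in mm9, with CpG in capitals, since the window of equal length left them out. The other 19 sites had no match anywhere, and the widest of them were the site near Per1 described next, a site of 429 bp at the start of C030046E11Rik at chr19:29671388-29671816 (best score 8.57) and a site of 384 bp between genes at chr2:144042969-144043352 (best score 9.54).
chr6:127092260-127092278, plus strand, Ccnd2: tgtccactagggggaggga
chr2:167835614-167835632, minus strand, Fam65c: CGgccaggagggggCGctg
chr19:11851920-11851938, plus strand, near Mrpl16: ttaccacatggtggCGcca

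Sites near the listed clock and liver genes were few in both groups. Of 8 lists with 175 genes, 2 had a ZT12-only site within 50 kb of a gene, with 3 sites in all (0.990%, 0.337 to 2.87%), against 72 wide shared sites near a gene of any list (2.33%, 1.85 to 2.92%), a difference of -1.34 points whose interval includes 0 (-2.22 to 0.599). The core clock list had 1 site (0.330%), against 6 wide shared sites (0.194%), a difference of 0.136 points (-0.219 to 1.65). It lay upstream of Per1, which encodes a repressor of the circadian feedback loop. The list of clock output regulators had 2 sites (0.660%), against 9 wide shared sites (0.291%), a difference of 0.369 points (-0.177 to 2.09). They lay at chr6:108659998-108660304, 43.2 kb from Bhlhe40, and at chr6:145778631-145778930, 28.0 kb from Bhlhe41; both genes encode basic helix-loop-helix repressors of clock genes. The Bhlhe40 site had a match of score 17.52 with a CpG at positions 15 and 16, and the Bhlhe41 site one of 18.50 without a CpG, 413 kb from the nearest ZT0 site. For the other 6 lists, of CTCF and cohesin, glucose metabolism, imprinted genes, lipid, sterol and bile acid metabolism, liver transcription factors and plasma proteins, 0 of 303 sites lay within 50 kb, which allows a share of up to 0.990% by a floor of 3 counts and up to 1.25% by the Wilson interval. Wide shared sites near these 6 lists numbered between 6 and 12 a list, shares of 0.194 to 0.388%, so the lists are too small to tell the groups apart.

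The Per1 site was unusual among the wide ones. It spans chr11:68905820-68906277, 458 bp, with its midpoint 2.67 kb upstream of the Per1 start, between genes and 25.1 kb from the nearest ZT0 site. The best score in it was 8.02, below the threshold of 10.9 used for matches on this chromosome, and 3 CpG lay in the window. Of the short motifs searched, the window held only the NFY box. The window is printed 5′ to 3′ on the plus strand of mm9, with the best 19 bp left in lower case since they are no match.
chr11:68905907-68906191, upstream of Per1, no match: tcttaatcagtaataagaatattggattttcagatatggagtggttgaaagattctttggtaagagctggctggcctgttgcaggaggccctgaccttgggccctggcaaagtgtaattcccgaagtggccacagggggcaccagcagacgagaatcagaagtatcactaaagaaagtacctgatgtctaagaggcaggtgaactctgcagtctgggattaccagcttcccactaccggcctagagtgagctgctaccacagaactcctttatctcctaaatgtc

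Short motifs of other factors were searched on both strands of the windows, with 14 strings of letters. The SP box GGGCGG, a GC-rich promoter element, was found in 18 ZT12-only windows (5.94%, 3.79 to 9.19%), in 718 shared windows (23.2%, 21.8 to 24.8%) and in 22 of 605 windows 5 kb from the ZT12-only sites (3.64%). The difference was -17.3 points (-19.9 to -13.7), and over 1 kb from a start it was -9.56 points (-12.0 to -6.08), with 13 of 274 windows (4.74%) against 329 of 2300 (14.3%). The ETS core CCGGAAG was found in 5 windows (1.65%) against 136 (4.40%), a difference of -2.75 points (-3.98 to -0.496), which over 1 kb from a start was -1.02 points (-2.16 to 1.28). The part of base composition in these differences was not tested. The E-box CACGTG, which the clock activators bind, was found in 9 windows (2.97%, 1.57 to 5.55%), against 158 shared windows (5.11%, 4.39 to 5.95%) and 6.12% of the windows 5 kb away, a difference of -2.14 points (-3.77 to 0.534). The D-box TTATGTAA was found in 2 windows (0.660%) against 19 (0.615%), and the ROR element AAAGGTCA in 1 (0.330%) against 37 (1.20%). Another string for this element, TAGGTCA, was found in 11 windows (3.63%, 2.04 to 6.38%), against 60 (1.94%, 1.51 to 2.49%), a difference of 1.69 points (0.00506 to 4.47), which over 1 kb from a start was 1.65 points (-0.131 to 4.63).

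For the remaining motifs, most of them of liver factors, the interval of the difference included 0, and counts of 8 or fewer are too low to show similar frequency. The C/EBP site TTGCNNAA was found in 34 ZT12-only windows (11.2%) and 9.74% of shared windows (difference 1.48 points, -1.79 to 5.65). The forkhead site TGTTTAC was found in 7 (2.31%) and 2.49% (difference -0.182 points, -1.52 to 2.25). The HNF4 string CAAAGTCC was found in 2 (0.660%) and 1.39%, and the HNF1 string GTTAATNA in 8 (2.64%) and 1.59% (difference 1.05 points, -0.337 to 3.57). The NFY box CCAAT was found in 97 (32.0%) and 28.3% (difference 3.76 points, -1.49 to 9.43), and the AP-1 site TGANTCA in 15 (4.95%) and 5.34%. The CRE TGACGTCA was found in 1 (0.330%) and 0.647%, and the LRH-1 string TCAAGGTCA in 0 of 303, with the same upper limits as for the gene lists above, against 0.518% of shared windows and 1.65% of the windows 5 kb away. A string of letters is no evidence of binding by these factors.

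The distance to neighbouring sites was measured from edge to edge. The nearest other ZT12 site lay at a median of 50.6 kb (95% interval 41.6 to 66.3 kb, quartiles 18.1 and 167 kb), against 39.6 kb (36.7 to 42.2 kb, quartiles 11.3 and 106 kb) for wide shared sites and 66.2 kb (56.7 to 80.6 kb) for narrower ZT12-only sites. The difference of medians from wide shared sites was 11.0 kb, and the range spanned by the bounds of both medians, -0.597 to 29.6 kb, includes 0. At a minimum width of 250 bp the difference was 16.1 kb (4.90 to 33.0 kb). Without ZT12-only sites that had a ZT0 site within 1000 bp it was 11.4 kb (0.441 to 33.0 kb). Both of these ranges exclude 0. In pairs of neighbouring ZT12 sites with a match, at most 200 kb apart and with at least 1 ZT12-only site from the wide group, the motifs faced each other in 66 of 299 pairs (22.1%, 17.7 to 27.1%) and pointed apart in 92 (30.8%, 25.8 to 36.2%). Pairs with a wide shared site had 23.9% (22.4 to 25.5%) and 27.5% (25.9 to 29.2%), within the intervals of the former. A pair of a ZT12-only and a wide shared site can count in both sets, so the sets are not independent. In introns of genes on a single strand, 53 of 104 matches lay on the strand of the gene (51.0%, 41.5 to 60.4%), against 44.7% (41.1 to 48.4%) of shared ones.

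The sites were spread over all 19 autosomes, with between 7 on chromosome 12 and 23 on each of chromosomes 2, 4, 7 and 11. Their share of the wide sites was lowest on chromosome 12 (5.83%, 95% Wilson interval 2.85 to 11.6%) and highest on chromosome 13 (13.0%, 7.88 to 20.6%), and the intervals of both include the 8.93% of all autosomes. Per 10 Mb of sequence the number ran from 0.577 on chromosome 12 to 1.89 on chromosome 11.

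Sequence that occurs many times in the genome touched more of the ZT12-only sites but filled few of them. A 24-mer found at 10 or more places in the genome occurred in 70 windows (23.1%, 18.7 to 28.2%), against 416 shared windows (13.5%, 12.3 to 14.7%) and 148 of the narrower ZT12-only windows (18.8%, 16.2 to 21.7%). The difference from wide shared sites was 9.64 points (5.07 to 14.8). More than 50% of the 24-mers were of this kind in 3 windows (0.990%) and in 57 shared windows (1.84%), a difference of -0.855 points (-1.70 to 1.07). This difference changed sign among sites under 350 bp, to 1.02 points (0.0369 to 3.55), and was -5.30 points (-7.06 to 6.13) at a minimum of 400 bp. Near 1700101E01Rik, at chr2:28909449-28909773, 26.7% of the 24-mers in the window were repeated in this way, the most among the named sites. The part of repeated sequence in the listing of a site at one time point was not tested.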

How the data were processed

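The authors fixed liver tissue, precipitated chromatin with an antibody against CTCF, mapped the reads with Bowtie2 to NCBIM37/mm9, kept those of sufficient mapping quality, discarded duplicate reads and ran MACS2 for the peaks. The positions of the peaks, the other unit used here, were deposited by the authors as starts and ends in 1 list per time point, labelled as both replicates after FIMO. Each list holds far fewer sites than the study describes as shared between ZT0 and ZT12, so most of those sites were not used here. How the replicates were combined and what FIMO was used for is not given in the sources used here. Neither a score nor a strand nor a replicate is given for a site, so the read depth is unknown and the 95% intervals cover counting error over sites only; sites share animals and are not replicates.

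Overlap, distance, sequence and position were computed with Python 3.11.15, NumPy 2.4.6, SciPy 1.17.1 and Numba 0.67.0 from the NCBIM37 genome and the GENCODE annotation of that build. The 19 bp matrix was started from a 12 bp seed, refined over 3 rounds and learned on odd chromosomes to score even ones, and the reverse. Shares have Wilson intervals, differences of shares Newcombe intervals and medians exact intervals from order statistics. No p-value was computed for a difference, and 163 differences of shares were computed without adjustment for their number. The motif scan, the overlap by 1 bp, the Newcombe intervals and the intervals of medians were tested on simulated data. The other steps, such as the learning of the matrix, were not. The genome used has no masked bases, so repeats were measured by the copies of 24-mers. Sites were named by rule: the 10 with the highest motif score, the 10 widest, those within 1 kb of a protein-coding start, those within 50 kb of a listed gene, the 5 widest without a match and those next to the limits; some sites that the rule names are not reported here. Of the 175 listed genes, 168 were in the annotation. The members and lists were chosen with earlier results of these data known. Chromosome X was left out. The shares of CpG in the match and of repeated 24-mers were chosen after seeing the data.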

Additional observations from a re-analysis of the deposited data

How the results depend on the processing

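The number of wide ZT12-only sites followed the minimum width, by construction: it was 547 at 250 bp, 79 at 350 bp and 30 at 400 bp. It was between 294 and 311 when ZT0 sites within 500 bp or 1000 bp counted as overlap, when a ZT0 site had to cover 50% of the narrower site and with chromosome X. At a minimum of 400 bp, the difference from wide shared sites was -20.3 points (-27.6 to -4.38) for the share within 1 kb of a start. For the share of matches with a CpG (6 of 26 matches) it was -47.4 points (-59.8 to -28.1). For the share mostly in repeated 24-mers it was -5.30 points (-7.06 to 6.13), where the interval includes 0. Set against the narrower ZT12-only sites in place of wide shared sites, the difference in median GC content turned to 0.702 points (range -0.702 to 1.75). That in the share within 1 kb of a start turned to 0.295 points (interval -3.30 to 4.55). The share of matches with a CpG differed by -2.02 points (interval -8.62 to 4.77). The median distance to the nearest other ZT12 site differed by -15.6 kb (range -39.0 to 9.58). All 4 include 0. The difference in median GC content was -4.00 points in 1000 bp and -4.56 points without sites within 1 kb of a start, and that in any repeated 24-mer was 9.64 points. The causes were not tested. The other 49 of 62 alternatives stayed within the interval or range of the main value or, for counts, within 1.5 times of it. Among them, with sites under 350 bp, the share within 1 kb of a start differed by -12.7 points (-16.6 to -7.70). The share of matches with a CpG differed there by -19.6 points (-26.5 to -12.4). Some of the 49 moved an interval or range across 0. The ranges excluded 0 for the motif score with the matrix from all ZT0 sites (-0.69), which was also learned on ZT0 sites that overlap wide shared sites. They excluded 0 as well for the distance to the nearest other ZT12 site at 250 bp (16.1 kb) and with no ZT0 site within 1000 bp (11.4 kb). The intervals excluded 0 for the share between genes with protein-coding genes (5.94 points) and with no ZT0 site within 1000 bp (5.99 points). The same held for the motif match over whole sites (-2.48 points). It also held for the share mostly in repeated 24-mers under 350 bp, which changed sign from -0.855 to 1.02 points. Against the narrower ZT12-only sites that share differed by 0.228 points, with 0 in the interval. The alternatives on CpG in the match, on repeated 24-mers and on whole sites were chosen after seeing the data.

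No paired analysis was possible because both replicates of a time point share 1 list, and none was left out for the same reason. The share of sites mostly in masked repeats, with all its alternatives, was not run since the genome used has no masked bases. The ZT0 list holds far fewer sites than the study describes as shared between the time points, and which step left the others out was not tested. With this and an unknown depth, the absence of a site at ZT0 does not show that CTCF was not bound.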
